A study of Sus scrofa with 15 samples.

Results

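The collagen genes of the piglet testis are described here as the rows of the deposited table whose name is COL, a number, A and a number. Of the 30476 genes listed, 38 met this rule. They fall into 10 fibrillar collagens, 5 basement membrane collagens (all of type IV) and 23 other collagens. A gene was tested when it passed edgeR's expression filter, which 36 of the 38 did (9 fibrillar, 5 basement membrane and 22 other) among 15634 genes in all. The remaining members were COL10A1, the short chain collagen of cartilage that turns to bone, with 0 or 1 read per library, and COL11A2, a fibrillar chain best known from cartilage, with 1 to 12 reads per library. COL4A1 and COL24A1 are listed by their Ensembl identifier alone, so the rule did not take them. They are not counted among the members.

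The libraries are testis RNA of male Dutch Landrace Duroc piglets, with 3 libraries per diet. Whether each library is 1 piglet is not stated in the sources used here, and n counts libraries. Feeding ran from postnatal day 2 to day 21. The Sow group drank sow milk, the Milk group a formula based on cow's milk and the Soy group a soy formula. The M + E2 group drank the formula of the Milk group to which estradiol had been added to give 2 mg/kg/d, and the M + G group the same formula with 84 mg/L of genistein, the main soy isoflavone. The estradiol group was the study's positive control for estrogen signalling. The other comparisons ask whether formula, soy or genistein changes the testis. For 1 Sow and 1 Soy library the column name has no number, and they appear here as Sow unnumbered and Soy unnumbered.

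Collagens are proteins of triple helices, built from the products of 1 gene or of several. Fibrillar collagens, above all types I, III and V, assemble into the tensile fibres of the testis capsule, the septa and the tubule wall. Type IV collagens form the sheet of the basement membrane under Sertoli cells, around peritubular myoid cells and around vessels. The other collagens decorate fibres, form the beaded filaments of type VI, cross the cell membrane, or sit at the edge of basement membranes as types XV and XVIII do.

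The libraries held 6097552 to 9488579 reads on genes, with a median of 8198038. Levels are counts per 1e6 reads (CPM) after TMM scaling, given as mean ± SD. They are not divided by transcript length, since no transcript length was used, and are therefore compared between libraries but not between genes. The test was edgeR's quasi-likelihood F test, fitted once to 14 libraries of all diets. Sow 2 was left out of that fit, as the study did for its low correlation with other libraries, so Sow has n = 2 there. Its values are given all the same. A gene is called when its Benjamini-Hochberg adjusted p over all genes is 0.05 or less and its change is at least 2-fold. The p-values measure the spread between these samples. The labelled tissue was checked on marker genes. CYP17A1, a Leydig cell enzyme, stood between 3573 and 10960 CPM, SOX9, a Sertoli cell transcription factor, between 36.1 and 146 CPM, and DDX4, a germ cell helicase, between 3.07 and 11.4 CPM. All were read in every library.

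The collagens held between 0.418% and 4.35% of all reads on genes. The fibrillar class alone held 0.350% to 3.77%, the basement membrane class 0.0226% to 0.193% and the other collagens 0.0453% to 0.380%. In 3 libraries the share stood well above the rest, namely Milk 2 with 3.73%, Soy 3 with 4.35% and M + G 2 with 3.57%. The remaining libraries held 0.418% (Sow 2) to 1.92% (Milk 3). These 3 libraries belong to 3 different diets, and the other libraries of those diets were not high. The M + E2 libraries were close together at 1.43%, 1.70% and 1.70%.

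**Figure D1:**
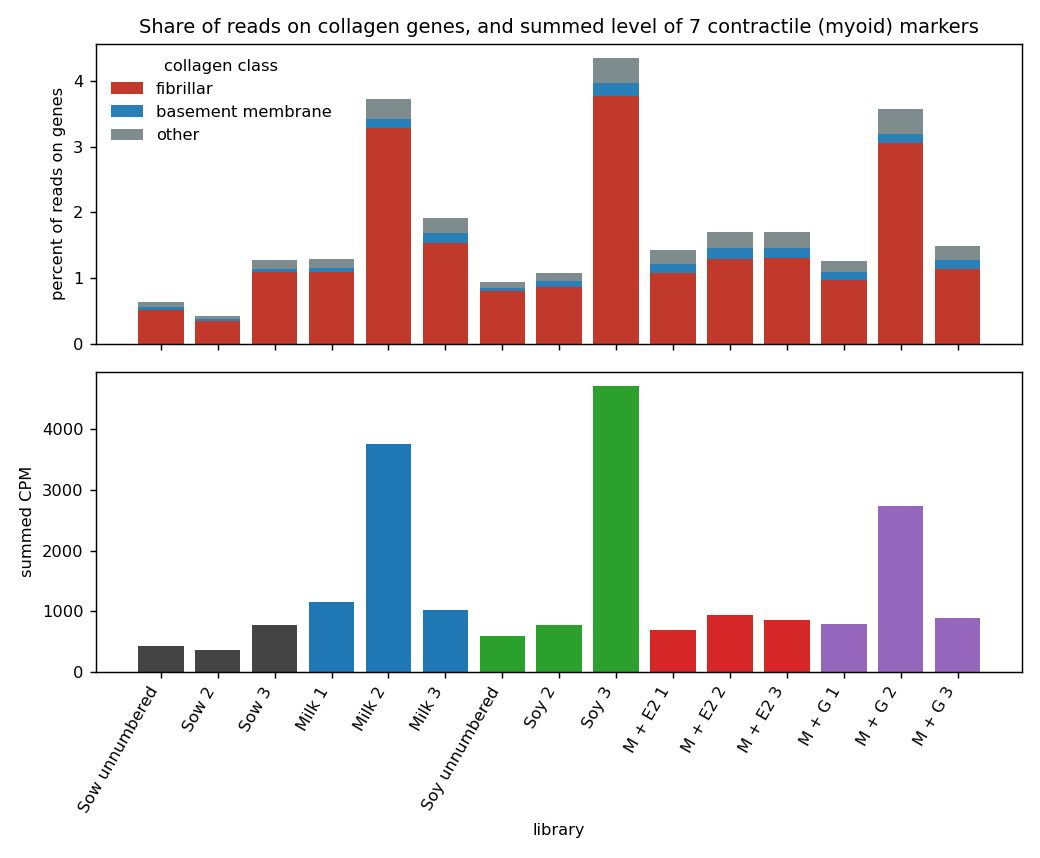
The upper bars give the percent of reads on genes that fell on fibrillar, basement membrane and other collagens in each of the 15 libraries, and the lower bars the summed CPM of 7 peritubular myoid markers, coloured by diet. Milk 2, Soy 3 and M + G 2 are the 3 highest libraries in both panels.

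COL1A1 and COL1A2 encode the chains of type I collagen, the main fibre of connective tissue. COL1A1 was read at 1604 CPM in Sow unnumbered, 1039 in Sow 2 and 4529 in Sow 3. In Milk it was at 5175, 17630 and 6470 CPM, in Soy at 3289 (unnumbered), 3410 and 18520, in M + E2 at 4005, 5229 and 4695, and in M + G at 3722, 15430 and 4596. Within a diet, 1 library was thus 2.73-fold (Milk 2), 5.43-fold (Soy 3) or 3.36-fold (M + G 2) above the next highest. COL1A2 followed the same libraries, at 1020, 881 and 2532 CPM in Sow, 2505, 7533 and 2771 in Milk, 1775, 1618 and 7243 in Soy, 1776, 2217 and 2389 in M + E2, and 1715, 6209 and 1991 in M + G. The ratio of COL1A1 to COL1A2 reads ran from 1.18 in Sow 2 to 2.56 in Soy 3, a 2.17-fold range, while COL1A1 itself ranged 17.8-fold.

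COL3A1, the chain of type III collagen of soft and distensible tissue, was at 2551, 2414 and 3720 CPM in Sow and at 3726, 6968 and 4463 in Milk. It was at 2921, 2993 and 8681 CPM in Soy, 3118, 3741 and 3767 in M + E2, and 3685, 7280 and 3384 in M + G. Its range over libraries was 3.60-fold, far narrower than that of COL1A1, so the ratio of COL1A1 to COL3A1 reads went from 0.43 in Sow 2 to 2.53 in Milk 2. COL5A1 and COL5A2, chains of the type V collagen that starts and limits fibrils, ranged from 82.1 (Sow 2) to 948 CPM (Soy 3) and from 145 (Sow 2) to 594 CPM (Milk 2). COL3A1 and COL5A2 lie next to each other on chromosome 15, 16177 bases apart, and their read ratio stayed between 11.7 and 18.03.

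**Figure D2:**
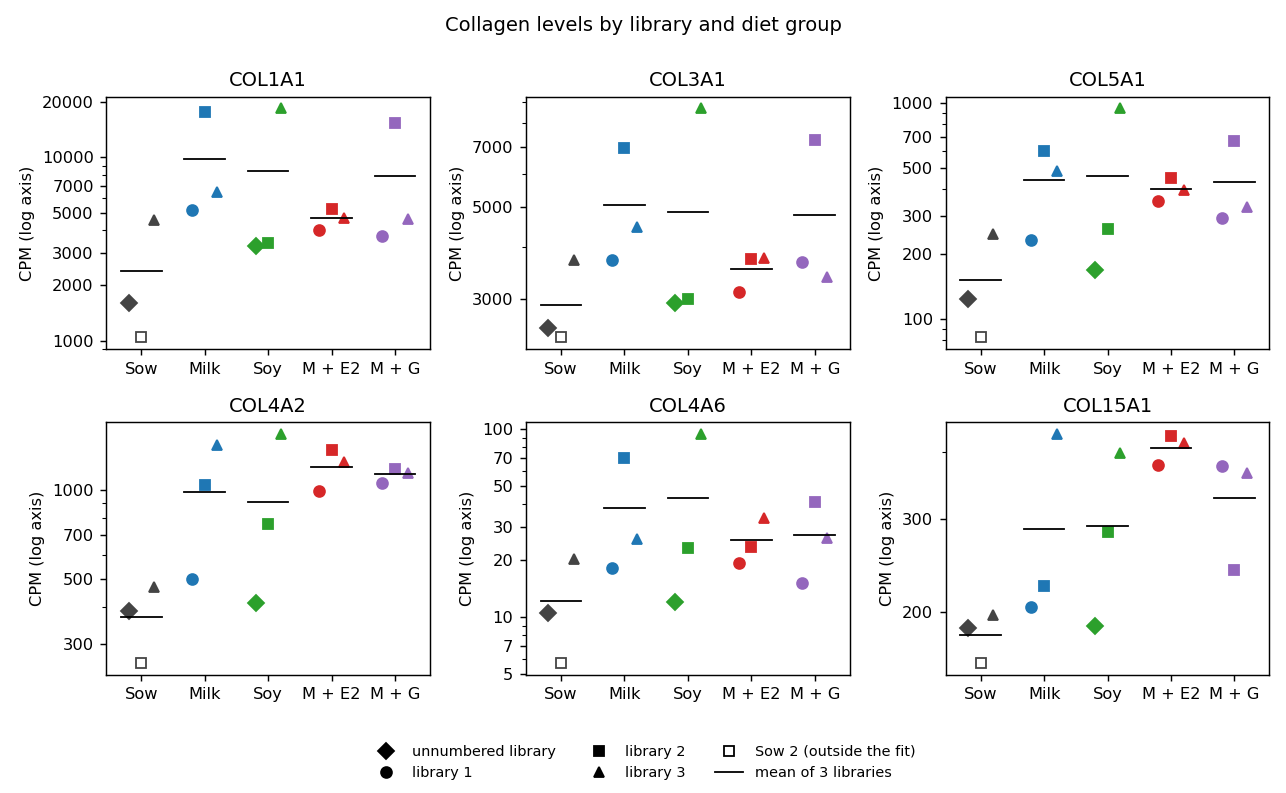
Each point is a library, with CPM on a log axis, for 6 collagen genes over the 5 diets; bars mark the mean of the 3 libraries and the open square is Sow 2, which was outside the fit. COL1A1, COL3A1, COL5A1 and COL4A6 are highest in Soy 3, Milk 2 or M + G 2, whereas COL15A1 is lowest of its diet in M + G 2.

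The other fibrillar members were read at lower levels. COL5A3, the third type V chain, ranged from 11.08 (Sow 2) to 36.8 CPM (Soy 3), and COL11A1, which nucleates fibrils together with type II and type V chains, from 7.79 (Sow unnumbered) to 30.7 CPM (M + G 2). COL2A1, the fibre collagen of cartilage, was read 2 to 14 times per library. Its CPM of 0.29 to 1.49 is too low to order the diets.

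Type I collagen was not called between any diets. In M + E2 vs Sow the log2 fold change of COL1A1 was 0.54 (SE 0.84, adjusted p = 0.679), and in M + G vs Sow it was 1.34, where M + G 2 stood far above Sow and the other M + G libraries stood close to Sow 3. The group means of COL1A1 were 9758 ± 6847 CPM in Milk, 8405 ± 8757 in Soy and 7916 ± 6521 in M + G (SD, n = 3 each), against 4643 ± 614 in M + E2 (SD, n = 3) and 3067 ± 2068 in Sow (SD, n = 2). The SD was at least 6521 CPM in each diet with 1 of the 3 high libraries. The part of a gene's sum of squares on the log2 scale that lay between diets had a median of 24.4% in fibrillar collagens. It was 46.7% in the basement membrane class, 36.1% in the other collagens and 42.2% over all genes tested. This share is not adjusted for the number of diets. It lies above 0 without any effect of diet, and is read only beside the value over all genes.

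Peritubular myoid cells, the contractile cells of the tubule wall, are marked by 7 genes (ACTA2, MYH11, CNN1, TAGLN, DES, ACTG2 and MYLK), all 7 of which were in the table and read. Their summed level was 3754 CPM in Milk 2, 4716 in Soy 3 and 2737 in M + G 2, and 360 to 1152 in the other 12 libraries. ACTA2, the smooth muscle actin, stood at 1473, 1633 and 1140 CPM in these 3 libraries and MYH11, the smooth muscle myosin, at 479, 973 and 248. The summed level of 8 endothelial markers was also highest in Soy 3 (1337 CPM), Milk 2 (1271) and M + G 2 (931), the last close to M + E2 2 (923). The 5 fibroblast markers summed to 624 CPM in Milk 2, 622 in Soy 3 and 615 in M + G 2. In the others they summed to 298 (Sow 2) to 549 CPM (Milk 3). Of these markers PDGFRA was highest in M + E2 3 and PDGFRB in Milk 3. Cartilage markers summed to 60.5 CPM in Soy 3 and 56.04 in M + G 2, against 34.6 in Milk 2 and less elsewhere. The mesothelium markers KRT8 and KRT18 summed to 323 CPM in M + G 2 and 308 in Soy 2, and to 50.7 to 202 in the others. Sertoli markers went the other way, with 1361 CPM in Milk 2, 1590 in Soy 3 and 1793 in M + G 2, the 3 lowest values, against up to 3431 in M + E2 2. The part of these markers in the collagen levels was not tested. In whole tissue, more cells of a type and more RNA per cell cannot be told apart.

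The high libraries were not alike in every collagen. In Soy 3, 6 of the 9 fibrillar, 3 of the 5 basement membrane and 9 of the 22 other members were at least 2-fold above the next library of the diet. In M + G 2 these counts were 5, 0 and 10, and in Milk 2 they were 3, 2 and 5. The same counts were not made over all genes, so they cannot be read as particular to collagens. COL8A1, a short chain collagen of vessel walls, stood at 82.1 CPM in Soy 3, 13.0-fold above the next Soy library. In M + G 2 COL26A1, a collagen described in testis and ovary, stood at 30.4 CPM, COL9A3, a cartilage chain of type IX, at 251 CPM, and COL12A1, which binds to type I fibres, at 361 CPM, which is 7.01-fold, 4.45-fold and 5.13-fold above the next M + G library. COL8A2 (30.8 CPM) and COL11A1 were also highest there. Sow 3 held the highest level of COL6A6 (20.6 CPM) and COL28A1 (6.10 CPM). At the other end, Sow 2 was the lowest of the 15 libraries in 25 of the 36 members, 8 of them fibrillar. How often Sow 2 was the lowest over all genes was not counted, so this is not a trait shown for collagens alone.

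**Figure D3:**
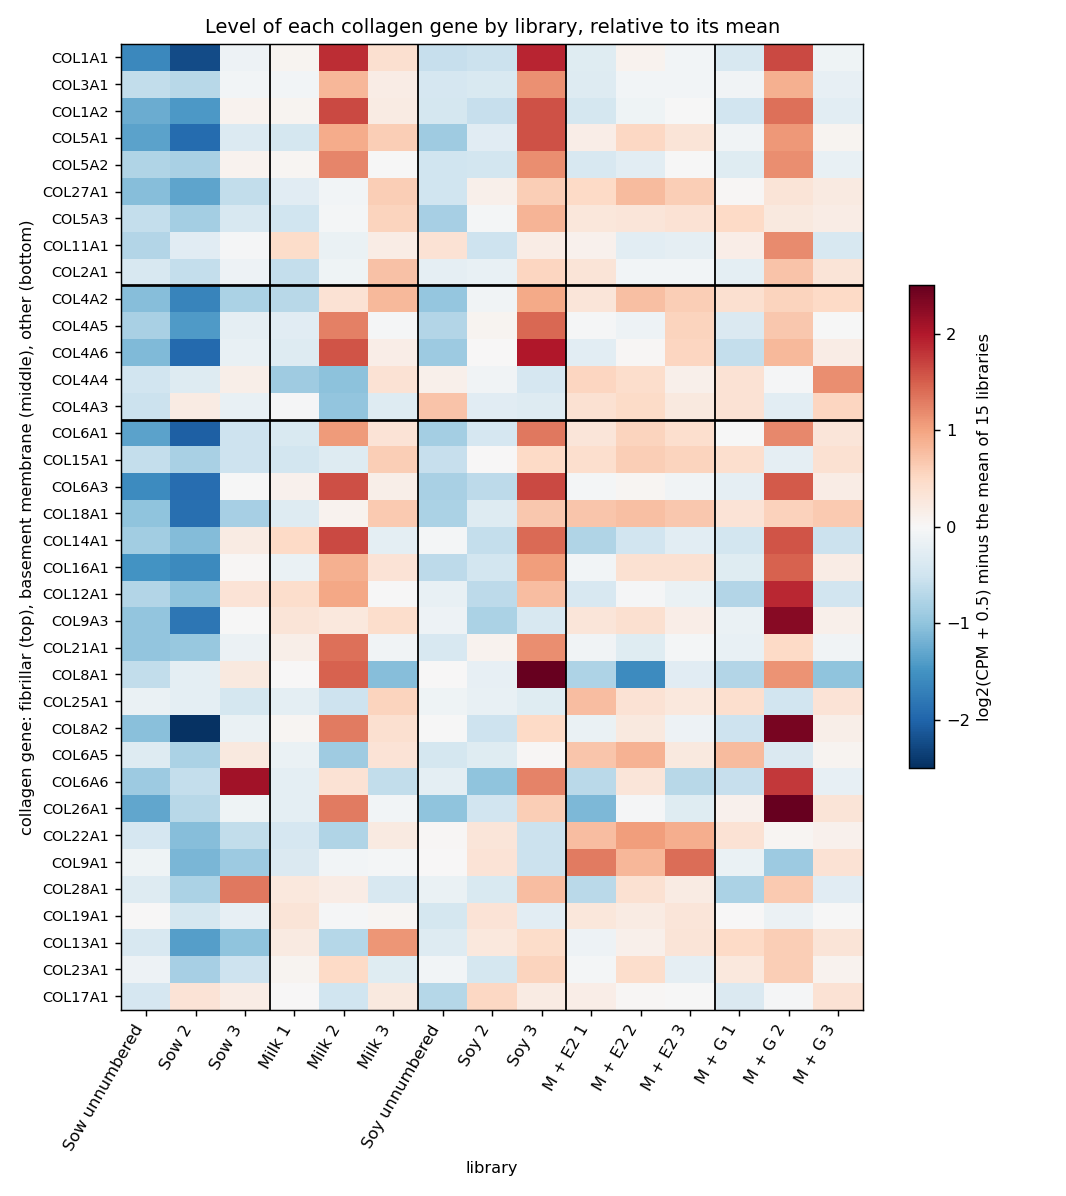
Colours give log2(CPM + 0.5) of each of the 36 tested collagens minus its mean over the 15 libraries, red above and blue below the mean; the classes are separated by horizontal lines and diets by vertical lines. Red stands mainly in the columns Milk 2, Soy 3 and M + G 2, blue in the Sow columns, and the 3 M + E2 columns resemble one another.

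The type IV genes are known as head-to-head pairs. In the annotation used, COL4A1 and COL4A2 overlap, as do COL4A3 and COL4A4. COL4A6 ends there at 88750938 and COL4A5 starts at 88958837 on chromosome X, so these positions do not show that pair as adjoining. Whether the counting used strand is not given in the sources used here, so reads from a stretch where partners overlap may not be told apart. COL4A2 was at 387, 258 and 467 CPM in Sow, 497, 1040 and 1418 in Milk, 413, 763 and 1548 in Soy, 990, 1365 and 1244 in M + E2, and 1058, 1181 and 1144 in M + G. All M + E2, M + G and Milk libraries were above all Sow libraries, and Soy overlapped Sow. Over all 15634 genes, all M + E2 libraries were above both fitted Sow libraries in 5236. All M + G libraries were in 4294 genes and all Milk libraries in 2462. Its partner COL4A1, on chromosome 11 with 525 bases in common, followed it, with 1.07 to 1.55 COL4A2 reads per COL4A1 read. COL4A2 was less tied to type I collagen. There were 3.52 COL1A1 reads per COL4A2 read in M + G 1 and 17.0 in Milk 2.

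COL4A5 and COL4A6, the X-linked pair, were high in the same libraries as type I collagen. COL4A5 was at 41.3, 26.8 and 61.8 CPM in Sow, 60.1, 174 and 71.6 in Milk, 43.3, 76.5 and 198 in Soy, 71.5, 66.9 and 108 in M + E2, and 56.5, 117 and 72.3 in M + G. COL4A6, which smooth muscle lays down with COL4A5, was at 10.5, 5.69 and 20.3 CPM in Sow, 18.3, 70.2 and 26.1 in Milk, 12.1, 23.3 and 94.2 in Soy, 19.3, 23.6 and 33.8 in M + E2, and 15.3, 40.7 and 26.4 in M + G.

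COL4A3 and COL4A4, the pair of the mature kidney filter, were not high there. COL4A3 was at 1.21, 2.33 and 1.67 CPM in Sow, 1.92, 0.74 and 1.49 in Milk, 3.54, 1.53 and 1.48 in Soy, 2.74, 2.93 and 2.44 in M + E2, and 2.69, 1.56 and 3.11 in M + G. COL4A4 was at 3.49, 3.94 and 5.62 CPM in Sow, 2.51, 2.23 and 6.59 in Milk, 5.51, 4.71 and 3.64 in Soy, 7.50, 7.01 and 5.52 in M + E2, and 6.66, 4.90 and 11.9 in M + G. Milk 2, 1 of the highest libraries for COL4A5 and COL4A6, was the lowest of all for both COL4A3 and COL4A4. These genes overlap by 663 bases on chromosome 15 and rest on 6 to 28 reads per library for COL4A3.

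Among the type VI collagens, COL6A1 and COL6A3 were high in the same libraries as type I collagen. COL6A1, a chain of the beaded filaments around cells, was at 198, 121 and 350 CPM in Sow, 383, 1038 and 634 in Milk, 278, 374 and 1245 in Soy, 617, 736 and 671 in M + E2, and 497, 1149 and 618 in M + G. COL6A3, the largest chain of the same filament, was at 71.0, 56.1 and 211 CPM in Sow, 229, 652 and 236 in Milk, 121, 135 and 669 in Soy, 205, 220 and 200 in M + E2, and 181, 616 and 242 in M + G. COL6A5, an alternative chain of type VI, was lowest of all libraries in Milk 2 (2.85 CPM), lowest of its diet in M + G 2 (4.28) and highest of its diet in Soy 3 (5.80). COL15A1, a basement membrane zone collagen with an endostatin-like end, was at 187, 161 and 198 CPM in Sow, 204, 224 and 433 in Milk, 189, 283 and 399 in Soy, 378, 429 and 417 in M + E2, and 377, 240 and 366 in M + G. COL15A1 had no peak in Milk 2 or M + G 2, and the ratio of COL1A1 to COL15A1 reads spanned 12.2-fold.

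The comparison of M + E2 with Sow asks what estradiol in formula does relative to sow milk. In it 4 of the 36 collagens (11.11%) were called, all of them higher in M + E2. Over all genes tested 5.0% were called, and 1.44% were called as higher. The 4 genes are COL27A1 among the fibrillar collagens and COL18A1, COL22A1 and COL9A1 among the others. No basement membrane collagen was called. M + E2 differs from Sow both by estradiol and by formula, and these cannot be told apart in this comparison.

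COL27A1, a fibrillar collagen of cartilage and other tissues (ENSSSCG00000005487, Sscrofa11.1 chromosome 1, 254768576 to 254924893), was at 50.01, 61.96 and 54.6 CPM in M + E2 and at 16.8, 14 and 22.8 in Sow. It was at 29.2, 33.7 and 54.9 CPM in Milk, 25.1, 38.8 and 54.5 in Soy, and 36.1, 44.2 and 41.7 in M + G. The M + E2 libraries lie above all Sow libraries but overlap Milk and Soy. The log2 fold change to Sow was 1.42 (SE 0.32, adjusted p = 0.0374), from 19.8 ± 4.28 CPM (n = 2) to 55.5 ± 6.03 CPM (n = 3).

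COL18A1 is the source of the vessel inhibitor endostatin and a heparan sulfate carrier of basement membranes (ENSSSCG00000038089, chromosome 13, 207907835 to 207984082). It was at 361, 377 and 354 CPM in M + E2 and at 111, 60.1 and 125 in Sow. It was at 178, 237 and 350 CPM in Milk, 128, 179 and 356 in Soy, and 283, 331 and 352 in M + G. The log2 fold change was 1.56 (SE 0.38, adjusted p = 0.0396). In every formula group all libraries were above all Sow libraries.

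COL22A1, a collagen of tissue junctions such as that between muscle and tendon (ENSSSCG00000005938, chromosome 4, 4069045 to 4313198), was at 8.07, 9.82 and 8.82 CPM in M + E2 and at 3.22, 1.90 and 2.75 in Sow. It was at 3.25, 2.48 and 5.34 CPM in Milk, 4.59, 5.69 and 2.96 in Soy, and 5.89, 4.70 and 4.89 in M + G. The M + E2 libraries were the 3 highest of the 15, and the log2 fold change to Sow was 1.51 (SE 0.35, adjusted p = 0.0381).

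COL9A1, a chain of the type IX collagen that coats fibres (ENSSSCG00000004274, chromosome 1, 50403355 to 50498356), was at 6.20, 4.33 and 6.69 CPM in M + E2, on 43, 34 and 63 reads. It was at 2.01, 0.73 and 0.96 CPM in Sow, 1.62, 2.10 and 2.11 in Milk, 2.23, 2.96 and 1.36 in Soy, and 1.92, 0.94 and 3.00 in M + G. Again the M + E2 libraries were the 3 highest of all. The log2 fold change to Sow was 1.89 (SE 0.49, adjusted p = 0.0431). The neighbouring collagen COL19A1, 1098 bases away, was at 2.55 to 2.76 CPM in M + E2 and at 1.44 to 2.85 over all libraries.

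**Figure D4:**
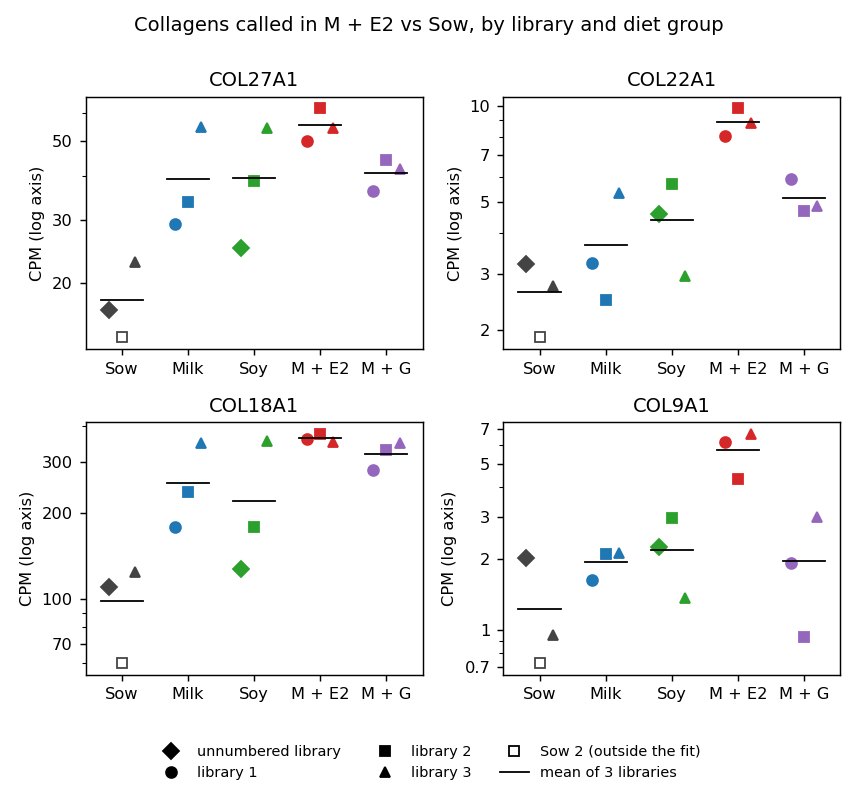
Points are the CPM of each library on a log axis for the 4 collagens called in M + E2 vs Sow, with the mean of 3 libraries as a bar and Sow 2 as an open square. For COL22A1 and COL9A1 the 3 M + E2 libraries lie above all others, while for COL27A1 they overlap Milk and Soy and for COL18A1 Soy.

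These calls depend on single libraries. Without any 1 of the M + E2 libraries the log2 fold changes were 1.34 to 2.05, but no collagen was called, and the adjusted p of the 4 genes was 0.0655 to 0.123. The count was also 0 without Soy 2, without M + G 1 or without M + G 3, which belong to neither group of the comparison. In these 6 runs the calls over all genes fell as well, from 781 to between 6 and 45. It was 7 with all 3 Sow libraries, with COL4A2, COL15A1 and COL6A1 added to the 4. It was 7 with Sow 2 in place of Sow unnumbered, and 11 with Sow 2 in place of Sow 3. Over all genes the share called in these 3 runs was 18.05%, 18.4% and 21.2%.

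Of the 36 collagens 30 were higher in M + E2 than in Sow. The median of their log2 fold changes was 0.53. Over all genes 50.5% were higher and the median was 0.0095. By class, the median was 0.50 for fibrillar (8 of 9 higher), 0.67 for basement membrane (5 of 5) and 0.51 for other collagens (17 of 22). All M + E2 libraries lay above both fitted Sow libraries in 16 collagens (44.4%), where the share over all genes was 33.5%, and in no collagen did they lie below both. An unadjusted p under 0.05 was reached by 6 collagens (16.7%), less than the 33.8% over all genes. COL4A2 had a log2 fold change of 1.43 (adjusted p = 0.0708) and COL15A1 of 1.02 (adjusted p = 0.0739), short of the threshold.

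The uncalled other collagens spanned log2 fold changes of −1.72 to 1.24 in this comparison. The FACIT group binds to the surface of fibres. It had 0.73 for COL16A1, 0.66 for COL9A3, 0.38 for COL19A1, 0.31 for COL21A1, −0.16 for COL12A1 and −0.30 for COL14A1. In type VI it was 1.24 for COL6A1, 0.62 for COL6A5, 0.51 for COL6A3 and −1.72 for COL6A6. The last was 0.54 with Sow 2 in place of Sow 3. The transmembrane collagens had 1.00 (COL13A1), 0.75 (COL25A1), 0.44 (COL23A1) and 0.12 (COL17A1), all at fewer than 15 CPM. COL8A2 had 0.52, COL26A1 0.15, COL8A1 −0.78 and COL28A1 −0.85. None of these passed the test.

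**Figure D5:**
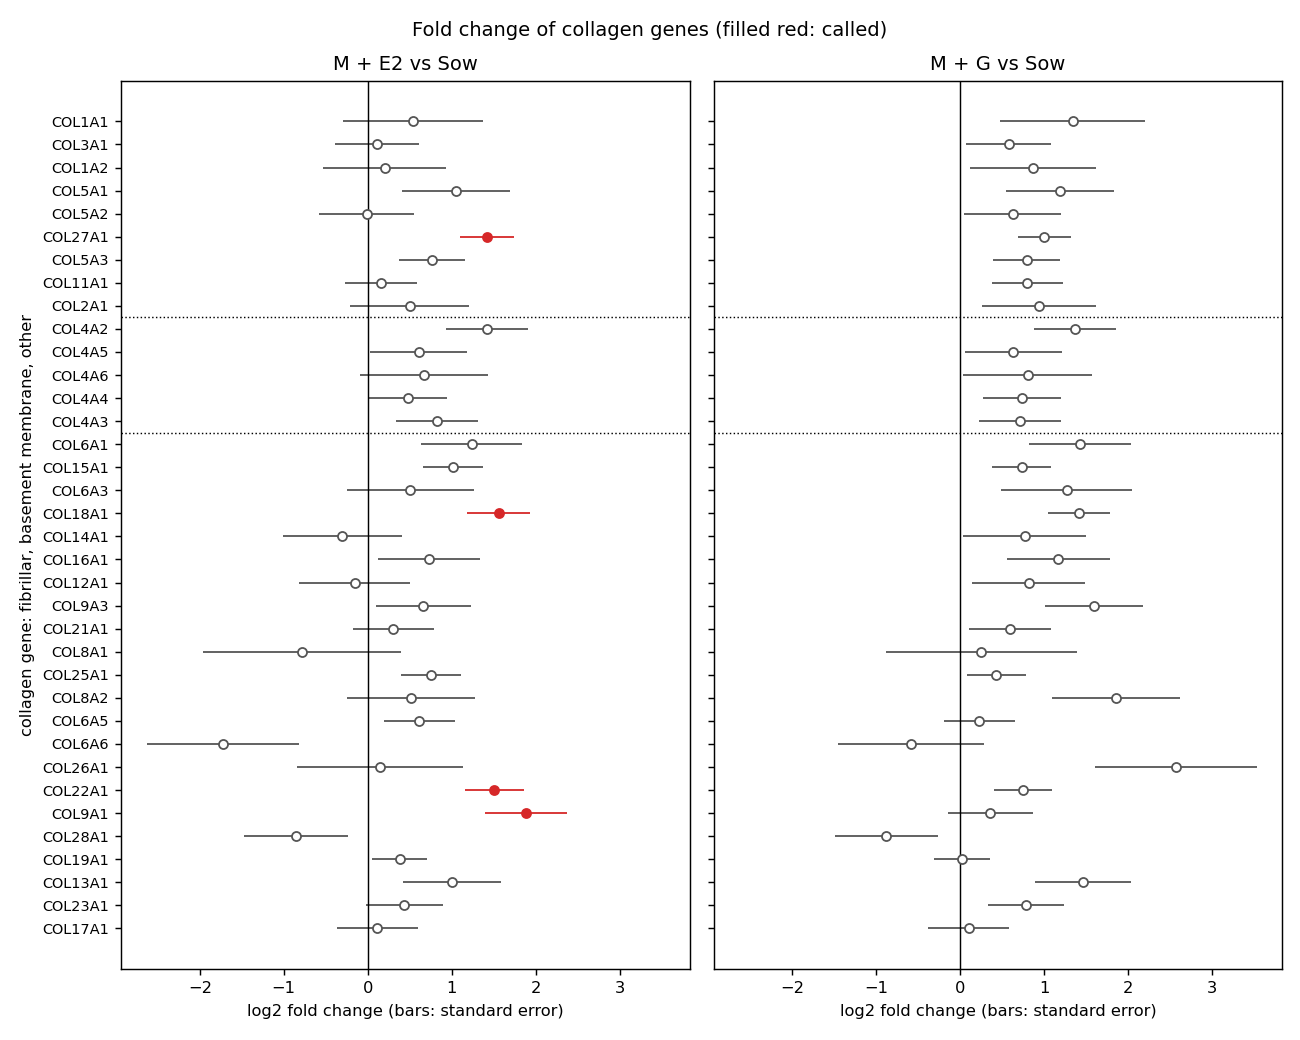
Points are log2 fold changes of the 36 tested collagens in M + E2 vs Sow and in M + G vs Sow with their standard errors, ordered by class and by level within it; filled red points are called. Both panels use the same 2 Sow libraries and the same axis, most points lie to the right of 0, and the 4 filled points are all in M + E2 vs Sow.

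In M + G vs Sow, the test of genistein formula relative to sow milk, none of the 36 collagens was called by edgeR's quasi-likelihood test (0.0576% of all genes were). Of them, 34 were higher, with a median log2 fold change of 0.79, and 8 had an unadjusted p under 0.05 (22.2%, against 23.6% of all genes). COL18A1 had a log2 fold change of 1.42 (SE 0.37, adjusted p = 0.124) and COL4A2 of 1.37 (SE 0.49, adjusted p = 0.145). COL27A1 had 1.00 (SE 0.32, adjusted p = 0.134). With all 3 Sow libraries 8 collagens were called, and with Sow 2 in place of Sow 3 or of Sow unnumbered 10 or 3 were. Over all genes 10.3%, 13.04% and 8.32% were called in these runs.

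Soy vs Sow and Milk vs Sow gave no called collagen either, where 0.0128% and 0.0192% of all genes were called. Unadjusted p was under 0.05 for 3 collagens in Soy (COL27A1, COL18A1 and COL4A2, 8.33% against 14.99% of all genes) and for 5 in Milk (COL27A1, COL18A1, COL4A2, COL13A1 and COL21A1, 13.9% against 12.1%). The log2 fold change of COL18A1 was 0.90 (SE 0.37) in Soy and 1.07 (SE 0.37) in Milk. That of COL27A1 was 0.99 (SE 0.32) and 0.94 (SE 0.32). Because M + E2, M + G, Soy and Milk were all set against the same Sow libraries, a like direction in these comparisons is not independent. In fibrillar collagens the median log2 fold change to Sow was 0.50 in M + E2, 0.87 in M + G, 0.65 in Soy and 0.77 in Milk. In basement membrane collagens it was 0.67, 0.74, 1.03 and 0.94.

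The comparisons with Milk ask what estradiol, genistein or soy adds within formula feeding. By the quasi-likelihood test no collagen was called in M + E2 vs Milk, M + G vs Milk or Soy vs Milk, nor was any other gene (0%). This depends on the test. In M + E2 vs Milk the authors' exact test called 1 collagen and 85 of all genes (0.544%). DESeq2 called 2 collagens and 122 of all genes (0.780%). The paper reports differentially expressed genes in that comparison. In M + E2 vs Milk, 4 collagens had an unadjusted p under 0.05 (11.11%, against 17.7% of all genes). Of these COL22A1 had a log2 fold change of 1.24 (SE 0.30, adjusted p = 0.186) and COL9A1 of 1.53 (SE 0.41, adjusted p = 0.186). The others were COL4A3 with 0.95 and COL6A5 with 0.81. All M + E2 libraries were above all Milk libraries for COL22A1, COL9A1, COL4A3 and COL18A1, and below all of them for COL1A2, COL5A2, COL6A3, COL12A1 and COL14A1. Over all 15634 genes this held for 1515 above and 1218 below. The fibrillar median was −0.35, with 7 of 9 lower in M + E2, and none had an unadjusted p under 0.05. In M + G vs Milk 1 collagen (COL4A4, log2 fold change 1.05) had an unadjusted p under 0.05, and in Soy vs Milk 0 did. Without Milk 3, 3 collagens were called in M + E2 vs Milk, and 8.04% of all genes.

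Soy was also set against M + E2, since soy isoflavones can bind estrogen receptors. None of the 36 collagens was called, where 0.147% of all genes were, and 4 had an unadjusted p under 0.05 (11.11%, against 12.97% of all genes). In 6 of the 36 collagens every Soy library was below every M + E2 library, as in 1996 of all 15634 genes. The reverse held for 1 collagen, COL8A1, and for 1218 genes. Among the 6 were COL22A1 and COL9A1, with log2 fold changes of −0.95 (SE 0.29, adjusted p = 0.202) and −1.33 (SE 0.40, adjusted p = 0.194). The others were COL25A1, COL4A4, COL6A5 and COL9A3. COL6A5 was at −0.85 (SE 0.37). COL8A1 was at 3.22 (SE 1.05, adjusted p = 0.230), a value carried mainly by the 82.1 CPM of Soy 3.

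In a test of any difference among the 5 diets no collagen reached an adjusted p of 0.05 (0.0640% of all genes did). An unadjusted p under 0.05 was reached by 7 collagens (19.4%, against 18.1% of all genes): COL22A1, COL9A1, COL18A1, COL27A1, COL26A1, COL9A3 and COL8A1. The unadjusted share of the sum of squares between diets was 76.95% for COL22A1 and 70.7% for COL9A1. It was 3.33% for COL17A1, a collagen of epithelial anchoring, and had a median of 42.2% over all genes.

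The genes that work with collagens were taken in 6 lists. Basement membrane partners are the laminins, nidogens and heparan sulfate proteoglycans that share the sheet with type IV. In M + E2 vs Sow 13 of the 14 tested were higher, 12 had an unadjusted p under 0.05, and the median log2 fold change was 1.25. Of the 14 genes 3 were called, all higher. For this and the other 5 lists, the values over all genes in this comparison were as follows. There 50.5% were higher, 33.8% had an unadjusted p under 0.05 and the median was 0.0095. Of all genes 5.0% were called, and 1.44% were called as higher. Among the 3 called genes of the list were AGRN (agrin), with a log2 fold change of 1.48 (SE 0.41, adjusted p = 0.0471), and NID2 (nidogen), with 1.14 (SE 0.30, adjusted p = 0.0436). NID2 was at 421, 431 and 408 CPM in M + E2 and at 181, 141 and 183 in Sow. The most read of the list were HSPG2 (perlecan), with 1.53 (adjusted p = 0.0693), and NID1, with 0.85 (adjusted p = 0.0901).

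Of 20 tested genes for collagen folding and modification none was called, 14 were higher and the median log2 fold change was 0.36. SERPINH1, the collagen chaperone, had 0.74 and P4HB, a subunit of prolyl hydroxylase, 0.17. The lysyl hydroxylases went apart, with PLOD2 at −0.87 (adjusted p = 0.0381) and PLOD3 at 0.82 (adjusted p = 0.0497), both short of 2-fold. Of 13 genes for trimming and crosslinking none was called (median 0.34), among them BMP1, the procollagen C-proteinase, with 0.27 and PXDN, which crosslinks type IV, with 0.95.

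Among 9 tested genes of collagen breakdown and its inhibitors FAP, a fibroblast surface protease, was called lower, with a log2 fold change of −1.12 (SE 0.28, adjusted p = 0.0406), from 269, 349 and 223 CPM in Sow to 118, 114 and 125 in M + E2. MMP2, a gelatinase, had 0.43 and TIMP3, a matrix-bound inhibitor, 0.33. None of 9 receptors was called (median 0.18), with ADGRG1, a receptor for type III collagen, at 0.62 and the integrin chain ITGB1 at −0.0045. None of 9 small proteoglycans of fibres was called (median −0.37). DCN (decorin) had −0.88 and BGN (biglycan) 0.60. In the other comparisons no gene of the 6 lists was called.

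Marker lists moved with the M + E2 comparison as well. The 8 Sertoli markers summed to 3328 to 3431 CPM in M + E2 and to 1843 to 2320 in Sow. That sum was mostly AMH and INHA. Of the 8 markers 6 were higher and 2 lower, 1 had an unadjusted p under 0.05 and none was called. The 5 Leydig markers in the table summed to 13020 to 13930 CPM in M + E2 and to 19270 to 19940 in Sow. All 5 were lower, and STAR, which carries cholesterol into mitochondria, was called lower at −1.53. Of 5 fibroblast markers PDGFRB, also a pericyte receptor, was called higher at 1.29, while PDGFRA had 0.27, THY1 −0.14, MFAP5 −0.86 and DPT −0.90. The 6 cartilage markers summed to 27.4 to 31.2 CPM in M + E2, 17.9 to 21.3 in Sow and 28.8 to 34.6 in Milk. That sum was mostly SOX5. The 3 markers that passed the filter (SOX5, SOX6 and ACAN) were higher in M + E2 than in Sow, but none was called. MATN1, MATN3 and CNMD did not pass it. The 8 endothelial markers summed to 707 to 923 CPM in M + E2 and 345 to 488 in Sow, and the 4 germ cell markers to 208 to 267 and 153 to 173. The last sum was mostly KIT (log2 fold change 0.62), and DDX4, MAEL and UCHL1 had −0.60, −0.53 and −0.54. KRT8 and KRT18, the mesothelium markers in the table, summed to 50.7 to 87.5 CPM and 163 to 202, and the 4 skeletal muscle markers to 28.8 to 59.96 and 73.5 to 81.0. That sum was mostly CKM (−1.49), while MYH7 had 1.39 and TNNT3 0.37. The erythroid sum, mostly HBB, overlapped between these groups, and SLC4A1, a red cell membrane transporter, was called higher at 3.51 (adjusted p = 0.0469), from 0.27, 0.44 and 0.12 CPM in Sow to 0.58, 1.40 and 5.10 in M + E2. None of the marker genes in the table was at 0 in all libraries. The mean level of 55 ribosomal protein genes, centred over libraries on the log2 scale, was 0.86 and 0.64 in Sow and −0.59, −0.31 and −0.01 in M + E2. With that level as a covariate no collagen was called. The log2 fold changes were then 1.78 for COL9A1, 1.26 for COL22A1, 0.87 for COL18A1 and 0.83 for COL27A1, at adjusted p of 0.239 to 0.277. The part of the other markers in the collagen levels was not tested.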

How the data were processed

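Testis RNA was sequenced as 36 bp single-end reads. Per the paper's methods, the authors used CLC Genomics Workbench 20.01 to map the reads to a curated porcine gene library, and what did not map there to Ensembl's Sscrofa11.1. For each library they deposited counts of reads per gene, which are whole numbers without normalization. Whether these hold all reads or those of the second step was not determined. Tests used edgeR 4.0.16 under R 4.3.3 (TMM, filterByExpr with a minimum count of 10, quasi-likelihood test). DESeq2 1.42.0 and edgeR's exact test were alternatives. The authors used the exact test. The number of columns left unused was 0.

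Adjusted p-values are Benjamini-Hochberg values over all 15634 genes tested. A count of 0 allows up to 3 reads (counting error only). Depth was 6097552 to 9488579 reads. The members, their classes, the partner and marker lists and the alternatives were chosen with earlier results of these data known. Values in every library are given for the 3 most read members of each class, the called members and the type IV pairs; other members are given by range or fold change, and partner genes when called or among the 2 most read of their list. The values of 1 called partner gene are not reported here. Names come from the table, and positions from a RefSeq annotation of Sscrofa11.1. Sequences were not used here. COL4A1 and COL24A1 were named from an identifier table.

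Same-numbered Milk and M + G libraries deviated together from their group means (r of 0.231, 0.493 and 0.413). Same-numbered Milk and M + E2 libraries did not (r of −0.0589, −0.09 and −0.323). The labels name no pairs, and these r come from the same data, so they cannot show a pairing. The replicate number served as a block in an alternative only. The code was tested on simulated data.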

Additional observations from a re-analysis of the deposited data

How the results depend on the processing

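The number of collagens called in M + E2 vs Sow was 4. It was 7 with all 3 Sow libraries, 9 in a fit of only the groups compared, 9 by edgeR's exact test, 0 with the ribosomal level as a covariate, and 7 without Milk 2, Soy 3 and M + G 2, an alternative chosen after seeing the data. Leaving out 1 library alone gave 0 to 6, and exchanging Sow unnumbered or Sow 3 for Sow 2 gave 7 or 11. In M + G vs Sow, with 0 called, these were 8 with all 3 Sow libraries, 5 with only the groups compared, 4 by DESeq2, 7 by the exact test, 0 each time on leaving out 1 library alone, and 3 or 10 when Sow 2 replaced Sow unnumbered or Sow 3. In each of these settings with more collagens called, more of all genes were called as well. In M + E2 vs Sow the share was 18.05% with all 3 Sow libraries and 12.3% with only the groups compared. It was 12.2% by the exact test, 9.95% without Milk 2, Soy 3 and M + G 2, and 0% with the covariate. In M + G vs Sow it was 10.3% with all 3 Sow libraries and 5.38% with only the groups compared. DESeq2 gave 2.11% there and the exact test 6.15%. In M + E2 vs Milk (0 called) DESeq2 called 2, the exact test 1, and leaving out 1 library 0 to 3. The shares over all genes were 0.780% by DESeq2, 0.544% by the exact test and 8.04% without Milk 3. In Soy vs M + E2 (0 called) the exact test called 1, COL9A1, and 1.31% of all genes. For any difference (0 called) the count was 4 with all 3 Sow libraries, 5 by DESeq2 and 0 to 2 on leaving out 1 library, with 2 without Milk 3. The shares over all genes were 7.62% with all 3 Sow libraries, 6.77% by DESeq2 and 6.67% without Milk 3. The counts for Soy vs Sow, Milk vs Sow, M + G vs Milk and Soy vs Milk were 0 in every alternative run. With the replicate number as a block, M + G vs Milk also had 0 called, and the largest change was that of COL4A4 (log2 1.10, adjusted p = 0.716). The block changed no other call. The causes were not tested.

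In M + E2 vs Sow 13 uncalled collagens changed sign under some alternative, on the log2 scale as follows. With all 3 Sow libraries COL12A1 was at 0.15, COL17A1 at −0.0155 and COL5A2 at 0.21. With Sow 2 in place of Sow unnumbered COL11A1 was at −0.0447, COL17A1 at −0.33 and COL26A1 at −0.12, and in place of Sow 3 COL12A1 was at 0.67, COL14A1 at 0.50, COL28A1 at 0.75, COL5A2 at 0.56 and COL6A6 at 0.54. Without M + E2 1 or 2 COL5A2 was at 0.0506 or 0.0154, and without M + E2 2 COL26A1 was at −0.13. COL5A2 was at 0.0076 with only the groups compared, 0.0525 without a filter, 0.0106 with at least 10 reads in every library and 0.0034 by the exact test. With a trend on genomic gene span removed, which is not transcript length, COL11A1 was at −0.0448 and COL26A1 at −0.0143. With the ribosomal covariate COL12A1 was at 0.30, COL14A1 at 0.23, COL17A1 at −0.66, COL2A1 at −0.36, COL3A1 at −0.0081, COL4A4 at −0.13, COL5A2 at 0.0932, COL5A3 at −0.0368 and COL6A5 at −0.0918. With Sow 2 in place of Sow 3 COL11A1 was at 0.39 and COL26A1 at 0.72. On leaving out 1 library alone the lowest values were −0.24 for COL12A1, −1.09 for COL28A1 and −2.19 for COL6A6 (without M + E2 2), and −0.43 for COL14A1 and −0.14 for COL5A2 (without M + E2 3). The median over each class relative to Sow was above 0 in every alternative, in all 4 formula groups. With n = 2 or 3 and 2 to 14 reads, COL2A1 allows no statement on diets.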

Other observations

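COL4A1 and COL24A1, which the table lists by identifier alone, were measured beside the members. COL4A1, the partner of COL4A2 in the main type IV trimer, was at 321, 238 and 404 CPM in Sow (unnumbered, 2 and 3), 454, 970 and 1008 in Milk, 353, 603 and 1384 in Soy, 722, 1006 and 845 in M + E2, and 833, 1052 and 740 in M + G. Its log2 fold change in M + E2 vs Sow was 1.18 (SE 0.48, adjusted p = 0.109). All M + E2, M + G and Milk libraries were above all Sow libraries. Over all genes, every M + E2 library was above both fitted Sow libraries in 33.5%. COL24A1, a fibrillar collagen, was at 4.52 to 6.98 CPM in Sow and reached 36.4 CPM in Milk 2. In the other libraries it was at 7.62 to 19.7 CPM. Its log2 fold change was 0.67 (SE 0.52, adjusted p = 0.375) in M + E2 vs Sow and 1.48 (SE 0.52, adjusted p = 0.380) in Milk vs Sow.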
